A study of Homo sapiens with 3 samples.

Results

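The transcriptional coactivators YAP and TAZ, the TEAD factors that carry them to DNA and a set of their target genes were followed in HEK293 cells with and without a partial KANK1 knockout. The 10 genes were taken by symbol for their known roles: the coactivator genes YAP1 and WWTR1 (which encodes TAZ), the factor genes TEAD1, TEAD2, TEAD3 and TEAD4, and the targets CTGF, CYR61, ANKRD1 and AMOTL2. All 10 were present among 26209 gene symbols. HEK293 is an adherent line derived from human embryonic kidney. There were 3 libraries of polyadenylated RNA: 1 from cells labelled control with no treatment, and 1 each from clones 114 and 174, labelled partial KANK1-KO after genome editing. The clones came from HEK293 cells transfected with a plasmid that carried Cas9 and a guide placed close after the first start codon of KANK1. KANK1 encodes a scaffold of the cell cortex that connects adhesions with microtubules. Each clone is a single cell line in a single library, and the unedited cells are a single library, so a clone and its library cannot be told apart.

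YAP and TAZ do not bind DNA themselves. In the nucleus they bind TEAD proteins, which recognise the MCAT element GGAATG, and raise transcription of genes such as CTGF and CYR61. When the Hippo kinases are active, LATS1 and LATS2 phosphorylate YAP and TAZ, which are then held in the cytoplasm or degraded. The pathway is therefore regulated largely at the level of protein, and messenger RNA reports the supply of its parts and the output of its targets. Adhesion and tension in the actin cytoskeleton are known to act on it.

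The deposited unit was FPKM, which divides fragments by the length of the transcript and the size of the library, so that levels of different genes can be compared. From the FPKM that a single fragment adds to low genes, the libraries held about 16300000 fragments (control), 16800000 (clone 114) and 17000000 (clone 174). KANK1 itself was listed at 4.49 FPKM in unedited cells, 3.63 in clone 114 and 3.43 in clone 174 (limma log2 change -0.28, SE 0.40, adjusted p = 1.00). A guide near the start codon can leave an edited transcript that is still counted, so this level does not check the genotype. Of 7 genes known from the HEK293 line, 5 were at 1 FPKM or more in all 3 libraries, with summed levels of 987, 775 and 765 FPKM in the control, clone 114 and clone 174. The other 2, PAX2 and NEFM, were at 1.33 FPKM or less. Of 10 markers of blood, endothelium, fibroblasts and muscle, 0 reached 1 FPKM in all libraries, and PTPRC, HBB, PECAM1, MYH7 and TNNT2 were listed at 0 in all of them. The summed level of these 10 markers was 1.16 FPKM in unedited cells, 1.35 in clone 114 and 2.01 in clone 174. Its part in the results was not tested.

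The sequences below carry the TEAD element before a RefSeq start of 3 of the 4 target genes. They are shown because the levels of these genes are compared next. They come from RefSeq on GRCh38.p14, whereas the deposited values were made on hg19. Capitals mark GGAATG, or CATTCC where the element lies on the other strand. CTGF, which RefSeq names CCN2, lies on chromosome 6, and the stretch before its start is chr6:131951374-131951622 on the minus strand. The ANKRD1 sites are chr10:90921290-90921319 and chr10:90921198-90921227, and the AMOTL2 site, in front of the second of its 2 listed starts, is chr3:134374499-134374528, all on the minus strand. Exons annotated by GENCODE, whose starts differ from those of RefSeq, cover 189 of the 250 bases for ANKRD1 and 147 for AMOTL2. A printed match of these 2 genes can therefore lie inside an annotated exon and not in front of the gene. Only 30 bases around each of their matches are shown, whereas 1 base was left off for CTGF.
CTGF: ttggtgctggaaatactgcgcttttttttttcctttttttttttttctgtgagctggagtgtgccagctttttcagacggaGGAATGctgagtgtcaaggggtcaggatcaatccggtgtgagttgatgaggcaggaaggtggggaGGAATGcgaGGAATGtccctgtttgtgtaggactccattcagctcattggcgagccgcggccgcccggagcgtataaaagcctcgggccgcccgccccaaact
ANKRD1 first site: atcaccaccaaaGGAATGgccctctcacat
ANKRD1 second site: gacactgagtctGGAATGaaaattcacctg
AMOTL2 site: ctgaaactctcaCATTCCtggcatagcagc

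The element was searched on both strands in the 250 bases before each of 35116 gene starts. At least 1 match was present in 11.9% of all windows, at least 2 in 0.94% and at least 3 in 0.0826%. CTGF held 3 matches, which began 169, 104 and 95 bases before its start. ANKRD1 held 2, which began 220 and 128 bases before its start. AMOTL2 held 1, at 69 bases before the second of its 2 listed starts, and 0 before the first. The shares are of single windows, whereas AMOTL2 was searched in 2. YAP1 held 1 match, and WWTR1, TEAD2 and TEAD3 held 0. Windows were matched for 7 of the 10 genes and not for CYR61, TEAD1 and TEAD4. A match is a run of letters and does not show that a TEAD protein binds there.

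The 4 targets did not move together. CTGF and ANKRD1 were higher in clone 174 than in either other library, CYR61 was slightly lower in both clones, and AMOTL2 slightly higher in both. CTGF encodes a secreted matricellular protein of connective tissue. It was listed at 3.14 FPKM in unedited cells, 2.36 in clone 114 and 7.84 in clone 174, so that clone 174 stood high and the control lay between the clones. These levels stand for about 110, 85 and 285 fragments. Clone 174 held 2.5 times the CTGF level of the control (95% exact interval 1.99 to 3.13) and 3.32 times that of clone 114 (2.59 to 4.27). Clone 114 held 0.751 times the control level (0.559 to 1.01). These intervals cover counting error only and not the variation between cultures. In RNA from bulk cells, more cells that express a gene and more RNA per cell cannot be told apart.

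ANKRD1, which encodes an ankyrin repeat protein best known from heart muscle, was the lowest of the 10 genes. It was listed at 0.138 FPKM in unedited cells, 0.201 in clone 114 and 1.35 in clone 174, and again clone 174 stood high. The estimates came to 4 fragments in the control (95% exact Poisson interval 1.09 to 10.2), 6 in clone 114 (2.2 to 13.1) and 41 in clone 174 (29.4 to 55.6). The ratio of clone 174 to the control was 9.84, with a wide counting interval of 3.56 to 37.8, and that of clone 174 to clone 114 was 6.75 (2.85 to 19.4). Between clone 114 and the control the ratio was 1.46 (0.346 to 7.02), which is not a detectable difference at this depth. The mean of 0.565 FPKM is under the 1 FPKM required for the test across genes, so ANKRD1 was not tested.

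CYR61, the gene of another secreted matricellular protein and the most abundant of the 4 targets, did not share that pattern. It was listed at 13.7 FPKM in unedited cells, 11.5 in clone 114 and 10.9 in clone 174, or about 467, 404 and 389 fragments. Both clones lay under the control, at 0.841 (0.734 to 0.963) and 0.8 (0.697 to 0.916) times its level by counting error alone, and the clones lay close to each other. With a common sum the log2 difference of clone 114 shrank from -0.23 to -0.05, so it depends on the scaling. The ratio of CTGF to CYR61 was 0.23 in unedited cells, 0.205 in clone 114 and 0.716 in clone 174. AMOTL2, whose protein binds YAP at cell junctions, was listed at 3.26 FPKM in unedited cells, 3.9 in clone 114 and 4.58 in clone 174. Both clones were above the control, by 0.20 and 0.39 on the log2(FPKM + 1) scale. The authors' deposited table listed these 4 targets and none of the other members. It gave log2 ratios without a pseudocount, for clone 174, of 1.32 for CTGF, 3.30 for ANKRD1, -0.32 for CYR61 and 0.49 for AMOTL2.

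**Figure D1:**
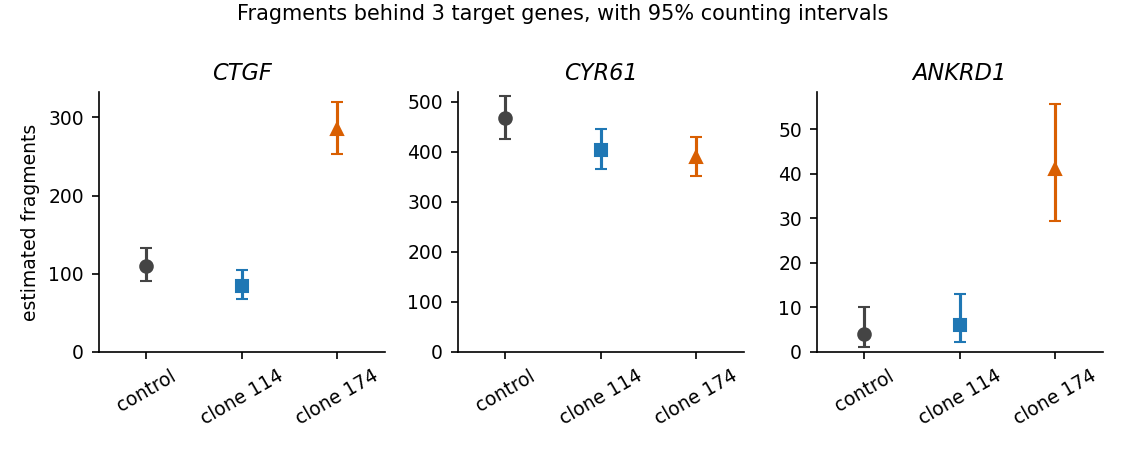
Estimated fragments of CTGF, CYR61 and ANKRD1 (vertical axes, each from 0) in the control, clone 114 and clone 174, with 95% exact Poisson intervals that cover counting error only. CTGF at 285 and ANKRD1 at 41 fragments stand high in clone 174, whereas CYR61 runs from 467 in the control to 389 in clone 174.

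Differences were also set against all 12577 genes that averaged 1 FPKM or more, on the log2(FPKM + 1) scale, which understates the change of low genes. Single clones have no replicate, so a 2-fold difference is a description without a test. Against the control, 1 of the 9 members in that set was at least 2-fold higher in clone 174, CTGF with a log2 difference of 1.09, where 1.93% of all genes were. In clone 114, 0 members were at least 2-fold different, where 3.15% of all genes were. ANKRD1, outside that set, differed from the control by 1.05 in clone 174 and 0.08 in clone 114. Between the clones CTGF was again the 1 member at least 2-fold higher in clone 174, with a log2 difference of 1.40, where 2.22% of all genes were. A difference of that size or larger between the clones, in either direction, was present in 2.62% of all genes. With a pseudocount of 0.1 FPKM the CTGF difference of clone 174 was 1.29 from the control and 1.69 from clone 114. With a pseudocount of 5 FPKM, which exceeds the CTGF level of the control, it was 0.66 and 0.80, under 2-fold. At that pseudocount 58 genes were at least 2-fold higher in clone 174 than in the control, against 243. With the FPKM of each library scaled to 1 common sum, at least 2-fold differences from the control were 349 higher and 113 lower in clone 114, against 225 and 171 unscaled, and 286 higher and 154 lower in clone 174, against 243 and 204.

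**Figure D2:**
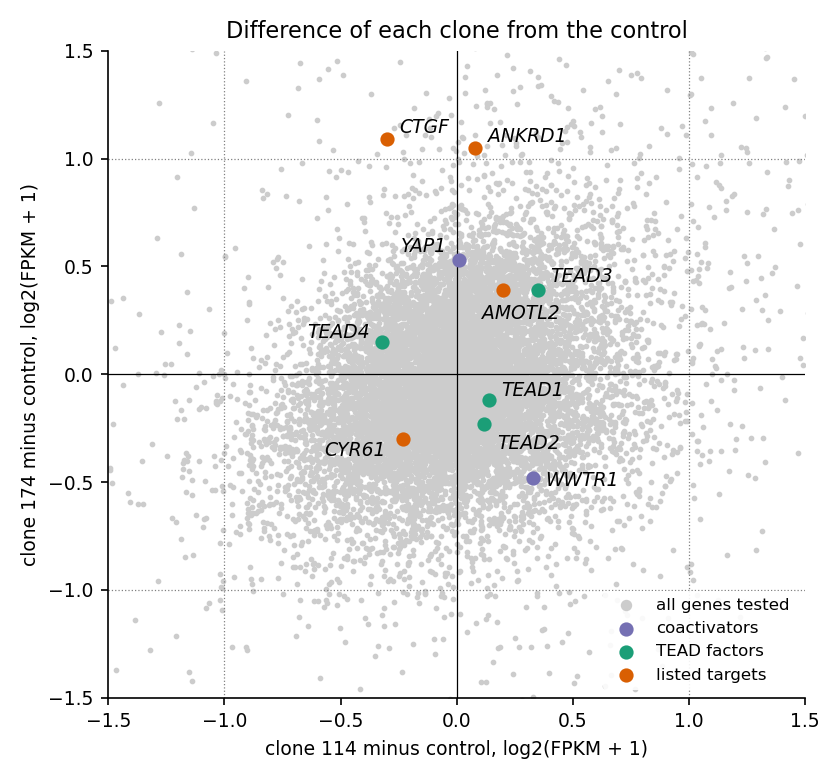
Difference of clone 114 (horizontal) and clone 174 (vertical) from the shared control on the log2(FPKM + 1) scale, with the 10 genes coloured by role, all tested genes in grey and dotted lines at 2-fold. CTGF at -0.30 and 1.09 and ANKRD1 at 0.08 and 1.05 lie above the upper line, and 261 grey genes fall outside the axes.

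The coactivator genes differed in opposite ways in clone 174. YAP1 was listed at 21.2 FPKM in unedited cells, 21.4 in clone 114 and 31 in clone 174, so the control and clone 114 were close and clone 174 was higher. WWTR1 was listed at 13.4 FPKM in unedited cells, 17.2 in clone 114 and 9.36 in clone 174, with the control between the clones. The ratio of YAP1 to WWTR1 was thus 1.58 in unedited cells, 1.25 in clone 114 and 3.32 in clone 174. Their summed level varied less, with 34.6 FPKM in the unedited line, 38.6 in clone 114 and 40.4 in clone 174. Between the clones the log2 difference was 0.51 for YAP1, a size reached by 25.5% of all tested genes, and -0.81 for WWTR1, a size reached by 9.82%.

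The TEAD factors bind the same element and are held to act redundantly in many cells. All 4 genes were expressed, and TEAD2, a form known mainly from embryonic tissue, was the most abundant. It was listed at 21.2 FPKM in unedited cells, 23.1 in clone 114 and 17.9 in clone 174. TEAD4 was listed at 15, 11.8 and 16.7 FPKM in the same order, and TEAD1 at 13.1, 14.6 and 12. In these 3 genes the control lay between the clones. TEAD3, the lowest of the family, was listed at 5.23 FPKM in unedited cells, 6.92 in clone 114 and 7.18 in clone 174, with both clones above the control and close to each other. As deposited, the summed TEAD level hardly moved, at 54.5 FPKM in unedited cells, 56.4 in clone 114 and 53.8 in clone 174. TEAD2 made up 38.9% of that sum in unedited cells, 41% in clone 114 and 33.2% in clone 174. TEAD4 made up 27.5%, 20.9% and 31.1%. With libraries scaled to a common sum, log2 differences of clone 114 from the control were 0.32, 0.31, 0.51 and -0.14 for TEAD1 to TEAD4. They were 0.14, 0.12, 0.35 and -0.32 as deposited, so the steady level depends on the scaling.

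**Figure D3:**
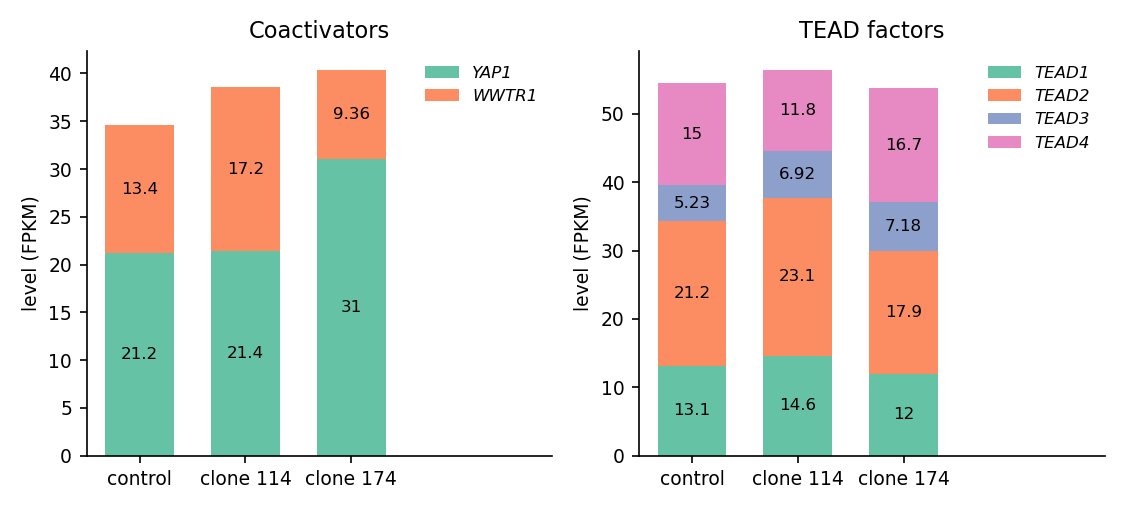
Stacked levels in FPKM (vertical axes, from 0) of YAP1 and WWTR1 (left) and of TEAD1 to TEAD4 (right) in each library, with each gene's FPKM written in its segment. The YAP1 segment is the larger in all libraries and reaches 31 in clone 174, while the summed TEAD level, as deposited, stays between 53.8 and 56.4.

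In the comparison of both clones with the control, 0 of 9 tested members passed limma with Benjamini-Hochberg adjustment over all genes, where 0.0795% of all genes did, and 0 had an unadjusted p under 0.05, where 1.73% of all genes did. The log2 change was 0.40 for CTGF (SE 0.55), 0.37 for TEAD3 (SE 0.36), 0.30 for AMOTL2 (SE 0.40), 0.27 for YAP1 (SE 0.36) and -0.26 for CYR61 (SE 0.34). It lay between -0.09 and 0.01 for WWTR1, TEAD1, TEAD2 and TEAD4, and each adjusted p was 1.00. Leaving out clone 174 turned the CTGF change to -0.30, and leaving out clone 114 raised it to 1.09. Of the 9 tested members, 3 were listed higher in both clones (YAP1, TEAD3 and AMOTL2, with YAP1 in clone 114 almost level with the control), 1 lower in both (CYR61) and 5 in opposite directions. Among all tested genes 26.1% were higher in both, 31.8% lower in both and 42.1% opposite, and both clones share the 1 control. Scaled to a common sum, 41.4% of all tested genes were higher in both and 17.9% lower in both. How far the clones differ gives 1 residual degree of freedom, which limma moderates with a prior of 8.8 degrees of freedom from all tested genes. Each SE therefore reflects mostly the spread over all genes and not that of the gene itself. For TEAD3 the clones differed by 0.05 on the log2 scale, whereas its SE was 0.36. A permutation of 3 libraries cannot give a p under 0.333.

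TEAD2 and YAP1 led, with TEAD2 first in clone 114 and YAP1 first in clone 174, where it exceeded 77.2% of all tested genes against 66.9% in the control. The control levels of both were 21.2 FPKM and cannot be ranked. WWTR1, TEAD1, TEAD4 and CYR61 formed the middle, where the order of neighbours changed between libraries. As means of the clones, WWTR1 was at 13.3 ± 5.52 FPKM and TEAD1 at 13.3 ± 1.82 (SD, n = 2). TEAD4 was at 14.3 ± 3.51 FPKM and CYR61 at 11.2 ± 0.4 (SD, n = 2). Differences in level between these genes were not tested. TEAD3 stood at 7.05 ± 0.19 FPKM (SD, n = 2). AMOTL2 stood at 4.24 ± 0.484 and CTGF at 5.1 ± 3.87 (SD, n = 2). CTGF stood below AMOTL2 and TEAD3 in the control and clone 114 and above both in clone 174. CTGF exceeded 17.6% of tested genes in unedited cells, 11.4% in clone 114 and 38.8% in clone 174.

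**Figure D4:**
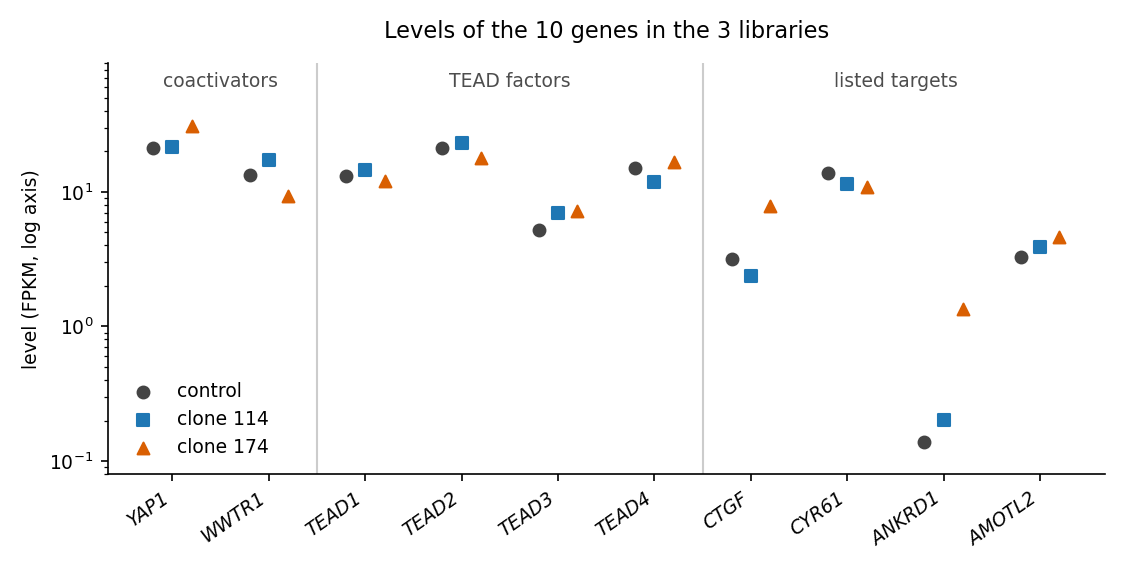
Level of each gene in FPKM (vertical log axis) in the control (circles), clone 114 (squares) and clone 174 (triangles), ordered by role. The coactivator and TEAD genes lie between 5.23 and 31 FPKM, CTGF and ANKRD1 are highest in clone 174, and ANKRD1 is the lowest member throughout.

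The near relatives of the targets were read in the same way. In the CCN family of secreted proteins, NOV was unlike CTGF in being low in both clones. It was listed at 9.71 FPKM in unedited cells, 2.48 in clone 114 and 4.89 in clone 174 (a log2 change of -1.24, SE 0.43, unadjusted p = 0.0164, limma adjusted p = 1.00). WISP1 and WISP3 were listed at 0 in all libraries and WISP2 at 0.101 FPKM or less. The angiomotins are junction proteins that bind YAP, and each of the 3 genes was higher in both clones, as deposited and under both scalings tried. Of all tested genes 26.1% were higher in both as deposited and 41.4% with a common sum. After quantile normalization AMOTL2 in clone 114 was 0.09 above the control on the log2 scale. AMOT was listed at 43.2, 53.7 and 78.9 FPKM in the control, clone 114 and clone 174 (a log2 change of 0.58, SE 0.36, adjusted p = 1.00), and AMOTL1 at 15.8, 18 and 20.5. The summed angiomotin level was 62.3 FPKM in unedited cells, 75.6 in clone 114 and 104 in clone 174. Of the relatives of ANKRD1, ANKRD2 was listed at 0 in the control and clone 114 and at 0.134 FPKM in clone 174. ANKRD23 was listed at 1.44, 1.32 and 1.28 FPKM in the control, clone 114 and clone 174.

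Further pathway genes were read from 5 lists. In these 0 genes passed limma and 0 had an unadjusted p under 0.05, against 0.0795% and 1.73% of all tested genes. The lists share genes, PTPN14 and LATS2 among them, and the binding partners include AMOT and AMOTL1. Their counts are therefore not independent of each other or of the angiomotin values. In the Hippo kinase cassette, which switches YAP and TAZ off, 7 of 13 tested genes were higher in both clones and 1 lower in both. Among all tested genes 26.1% were higher in both and 31.8% lower in both. The median log2 change of the cassette was 0.20 against -0.02 for all genes. With a common sum the counts were 9 and 0, against 41.4% and 17.9% of all genes. They were 7 and 1 after quantile normalization. STK38L, a kinase related to LATS, was listed at 10.7 FPKM in unedited cells, 11.3 in clone 114 and 15.8 in clone 174. STK38 (12.9, 14.4 and 17.1 FPKM), TAOK1 (17, 19.4 and 21.5) and MAP4K4 (22.9, 24.7 and 30.2) had the same order of libraries. The cassette did not rise as a whole, as 5 of the 13 genes went in opposite directions in the clones. SAV1, 1 of these 5, was listed at 17.6, 19.1 and 11.9 FPKM. LATS2, the 1 gene lower in both, was listed at 3.57, 3.38 and 2.84. Among 12 upstream scaffolds 2 were higher in both clones and 4 lower in both (median log2 change 0.02). These counts turned to 4 and 1 with a common sum and to 2 and 6 after quantile normalization, with a median of -0.03. NF2, the gene of the tumour suppressor merlin, was listed at 15.1, 11.5 and 12.4 FPKM in the control, clone 114 and clone 174, FRMD6 at 10, 9.27 and 6.27, and WTIP at 3.33, 2.94 and 5.33.

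Of 14 genes for other proteins that bind YAP, TAZ or TEAD, 12 were tested. As deposited 4 were higher in both clones and 2 lower in both (median log2 change 0.05). These counts were 7 and 1 with a common sum and 5 and 3 after quantile normalization. PTPN14, a phosphatase that binds YAP, was listed at 5.11 FPKM in unedited cells, 6.84 in clone 114 and 7.47 in clone 174, and the transcription factor gene RUNX1 at 5.01, 5.3 and 2.75. A further list held 18 published YAP and TAZ targets. Of these 11 were tested, 4 higher in both clones and 2 lower in both (median log2 change 0.09). The medians were 0.11 in clone 114 and -0.02 in clone 174. With a common sum the counts were 6 and 1, and after quantile normalization 3 and 3. Between the clones 5 of the 11 were higher in clone 174 and 6 lower, where 49.3% of all tested genes were higher. With the low targets that were not tested included, 10 of the 18 were higher in clone 174 than in clone 114. F3, the gene of tissue factor, was listed at 2.79 FPKM in unedited cells, 1.84 in clone 114 and 1.3 in clone 174, CRIM1 at 9.4, 11 and 11.6 and ASAP1 at 14.2, 19.4 and 13.5. The 7 targets not tested had means of 0.117 to 0.874 FPKM. Windows before the start were matched for 13 of these 18 targets, and 5 of the 13 held at least 1 GGAATG on either strand, against 11.9% of all windows. AXL, 1 of the 5, was searched in 2 windows.

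CTGF and CYR61 are also known targets of SRF, a factor that responds to actin through MRTF coactivators. Of 17 genes on that list 14 were tested, 2 higher in both clones and 5 lower in both (median log2 change -0.09). With a common sum the counts were 3 and 2, and after quantile normalization 2 and 2. ACTA2, the smooth muscle actin gene, was listed at 11.4 FPKM in unedited cells, 65.7 in clone 114 and 6.68 in clone 174. Its high level was in clone 114, whereas that of CTGF was in clone 174. ACTA2 changed by 0.86 on the log2 scale (SE 0.92, limma adjusted p = 1.00), and without clone 114 it changed by -0.69. ACTG1 was listed at 2634, 1880 and 2214 FPKM in the control, clone 114 and clone 174, TPM1 at 52.2, 33 and 49.7 and CNN3 at 134, 103 and 114. With scaling to that common sum the median of all tested genes moved from -0.02 to 0.11, that of the kinase cassette to 0.34, of the scaffolds to 0.14, of the binding partners to 0.20, of the published targets to 0.19 and of the SRF list to 0.05.

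**Figure D5:**
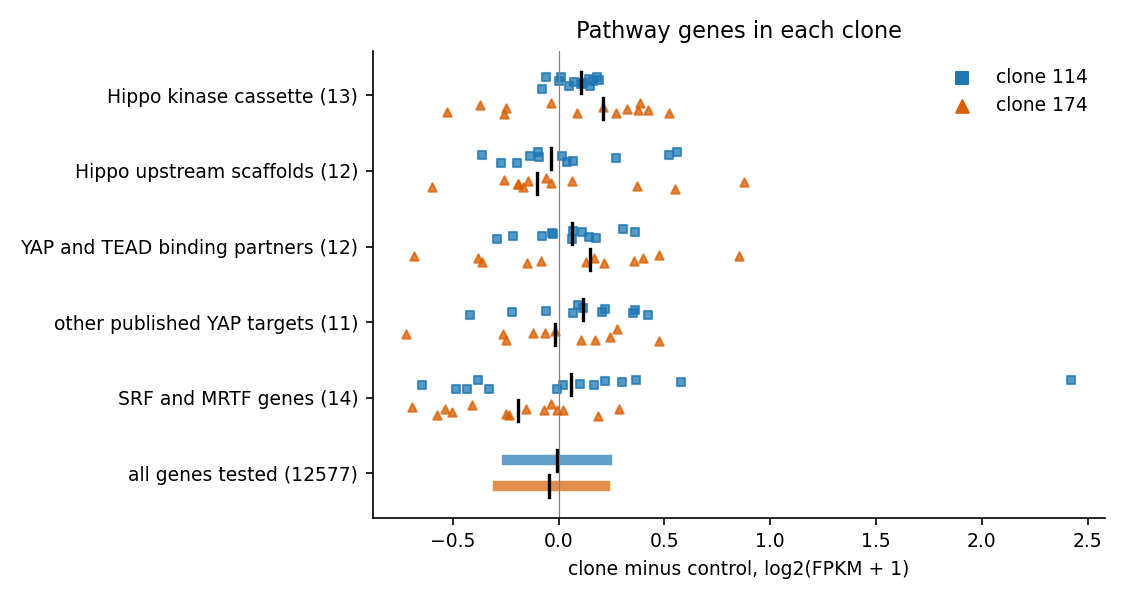
Difference of each clone from the control on the log2(FPKM + 1) scale (horizontal) for the tested genes of 5 pathway lists, with black bars at the medians and, for all tested genes, bars over the middle of the distribution from the lower to the upper quartile. The kinase cassette has medians of 0.10 and 0.21 in clones 114 and 174, and the point far to the right is ACTA2 in clone 114.

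Genes with the pattern most like each target were found by distance over the differences of both clones from the control on the log2(FPKM + 1) scale, that is over 3 libraries. Nearest to CTGF were C6orf132, at 0.545 FPKM in unedited cells, 0.283 in clone 114 and 2.41 in clone 174, and TCIRG1, at 2.36, 1.84 and 6.48. Nearest to ANKRD1 were SPIN4, at 5.68, 6.1 and 12.5 FPKM, and SORCS1, at 1.13, 1.32 and 3.31. The likeness to ANKRD1 holds on this scale only, which understates the change of low genes. Without the added 1 FPKM, ANKRD1 in clone 174 was at 9.84 times the control level, a larger fold than in either neighbour. HPS4 and CHAF1B lay nearest to CYR61, and DHX57 and VRK2 nearest to AMOTL2. These distances ran from 0.00233 for DHX57 to 0.0831 for TCIRG1, and with so few libraries they describe likeness in these libraries only.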

How the data were processed

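Per the submitters' processing notes, cutadapt 2.10, HISAT2 2.2.1, Cuffdiff 2.2.1 and the build hg19 were used. Neither settings nor annotation were given in the sources used here. Deposited by the authors were FPKM for 3 libraries and, for each clone, log2 ratios to the control without a pseudocount. In the FPKM of each library 28 rows with a date in place of a symbol were left out. The log2(FPKM + 1) values of 12577 genes averaging 1 FPKM or more were tested with limma 3.58.1 in R 4.3.3 (eBayes with trend, Benjamini-Hochberg threshold 0.05, prior of 8.8 degrees of freedom). This step was run on simulated data with the same spread for every gene and the same shift in both clones. Such data check the code and not the power of the fit in these libraries. Nothing states that the clones were separate cultures beyond their numbers, so p-values reflect the spread of these libraries alone, which may be technical. The single control is assumed to vary like a clone.

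Fragments were estimated from genes with 1 transcript of at least 1500 bases in GENCODE release 29 and at most 0.3 FPKM, assuming fragments of 200 bases. Depth was set at the value that put the largest number of these genes at 1 fragment within 1%, which was 56 of 294 in the control, 42 of 271 in clone 114 and 51 of 301 in clone 174. Fragments are given for targets with 1 protein-coding transcript, with exact 95% Poisson intervals, and exact binomial intervals for ratios (scipy 1.17.1).

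Members and lists were chosen with earlier results of these data known. Genes named are the members, KANK1, relatives of the targets, up to 4 genes per list with the largest log2 change and the 2 genes nearest each target. AXL, SAV1, LATS2 and the cell type markers PAX2, NEFM, PTPRC, HBB, PECAM1, MYH7 and TNNT2 stand outside that rule. AXL, SAV1 and LATS2 were chosen after their values were seen. 1 gene that the rule names is not reported here. Alternatives covered pseudocount, filter, scaling, trend, fold and leaving out each clone.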

Additional observations from a re-analysis of the deposited data

How the results depend on the processing

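No member passed limma under any of 7 alternatives of the fit. Leaving out 1 clone changed the sign for 5 members, CTGF (-0.30 to 1.09), WWTR1 (-0.48 to 0.33), TEAD1 (-0.12 to 0.14), TEAD2 (-0.23 to 0.12) and TEAD4 (-0.32 to 0.15). Of 62 pairs of a member and an alternative of the fit, 3 changed sign: with FPKM scaled to the same sum, WWTR1 turned to 0.07, TEAD2 to 0.09 and TEAD4 to 0.05, and ANKRD23 outside the members to 0.00. The number of genes called was 10, against 3 with a pseudocount of 0.1 FPKM, 0 without the filter (486 at an unadjusted limma p under 0.05), 6 with the same sum and 6 with quantile normalization. The cause was not tested. Genes at least 2-fold different from the control in clone 114 numbered 396, against 1655 at 1.5-fold, 683 with a pseudocount of 0.1 FPKM, 99 with 5 FPKM and 197 at a mean of at least 5 FPKM. In clone 174 they numbered 447, against 1644, 761, 117 and 204 in the same order, and between the clones 726, against 2516, 1177, 238 and 361. No paired analysis was possible because the control is a single library. ANKRD1, at 4 and 6 fragments in the control and clone 114, is limited by depth.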
